A study of Homo sapiens with 4 samples.

Results

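CpG methylation was described at 10 genes for enzymes that build glycosphingolipids, in 4 bisulfite sequencing libraries of the human embryonic stem cell line H9. The genes were UGCG, B4GALT5, A4GALT, B3GALNT1, ST3GAL1, ST3GAL2, FUT1, ST3GAL5, ST8SIA1 and B4GALNT1. Their members were the cytosines read at least 5 times in all 4 libraries within each gene's span on the hg19 build or within 5 kb on either side. The rule gave 374 cytosines, of 907719 that met the same minimum across the genome, and used no methylation value. All 10 genes held at least 10 members. The KO naive library came from B3GALT5-/- H9 cells made naive with 2iLAF medium, and the KO primed library from B3GALT5-/- H9 cells kept primed in basal medium. Wild-type (WT) H9 cells made naive with 5iLAF medium gave the WT naive library, and wild-type H9 cells kept primed in basal medium gave the WT primed library. KO thus stands for B3GALT5-/- throughout. Each group was 1 library, so no comparison had replicate error, and the media of the KO and WT naive libraries differed along with the genotype. Whether the KO line was a single clone is not given in the sources used here.

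Glycosphingolipids are sugar chains on a ceramide lipid, built in the Golgi by a series of glycosyltransferases that each add 1 sugar. UGCG makes glucosylceramide and B4GALT5 turns it into lactosylceramide, the branch point of the pathway. From there A4GALT and B3GALNT1 start the globo-series, ST3GAL5 and ST8SIA1 build the gangliosides GM3 and GD3, and B4GALNT1 makes GM2 and GD2. B3GALT5, the gene deleted in the KO cells, extends the globo-series chain that carries the stage-specific embryonic antigens, and ST3GAL1, ST3GAL2 and FUT1 cap such chains with sialic acid or fucose. Primed human embryonic stem cells are known for globo-series antigens at their surface, and conversion to the naive state is known to lower DNA methylation over much of the genome.

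The libraries were made by capture of CpG-rich and regulatory DNA, so the members are the captured cytosines of a gene and not all of its CpGs. Summed over listed cytosines, coverage was 40697882 in KO naive, 28450230 in KO primed, 23916547 in WT naive and 24570785 in WT primed cells. A read that covers several cytosines is counted at each of them, so these are not numbers of reads. A member had a median of 20 reads in KO naive, 14 in KO primed, 14 in WT naive and 12 in WT primed cells, and the highest mean coverage of a member was 37.0 reads. Every listed cytosine had at least 1 methylated read, so a cytosine missing from a table was either not covered or never methylated, and low levels are raised by this selection. Of the members 92.5% lay on the minus strand, against 85% of all cytosines. Exons and introns were not assigned, because an annotation of hg19 was not used here.

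The 374 members stood close to the mean of all captured cytosines in every library. Their level averaged 59.2% ± 26.2 in KO naive, 83.8% ± 23.9 in KO primed, 57.6% ± 26.2 in WT naive and 80.7% ± 24.7 in WT primed cells (SD over 374 cytosines; it describes spread along the DNA, not error between cultures). All 907719 cytosines averaged 58.9%, 81.2%, 57.7% and 80.2% in the same order of libraries. Pooled over reads, the members stood at 57.5% in KO naive cells (Wilson 95% interval 56.4 to 58.6%), at 82.5% in KO primed cells (81.5 to 83.5%), at 55.7% in WT naive cells (54.4 to 57.0%) and at 79.5% in WT primed cells (78.3 to 80.6%); the intervals cover counting error only. The member mean was lower in KO naive than in KO primed cells by 24.6 percentage points, beside 22.3 over all cytosines. In WT cells the naive mean was lower by 23.1 points, beside 22.5 over all cytosines.

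All 10 genes had a lower mean in both naive libraries than in the primed library of the same genotype. With unlisted cytosines filled in as unmethylated, B4GALNT1 turned in both genotypes and the other 9 genes kept their sign. At the minimum of 5 reads FUT1 differed most in both genotypes, and A4GALT and B4GALNT1 least. That order depended on the setting: at 10 reads UGCG came first (-39.2 points in KO and -42.5 in WT cells), and with filling in B3GALNT1 did (-46.3 in KO and -41.3 in WT cells). By position along the gene, the 38 members within 2 kb of the 5′ end of a span averaged 48.7% in KO naive, 81.1% in KO primed, 39.4% in WT naive and 81.3% in WT primed cells. The 273 members further inside the spans averaged 65.2%, 85.9%, 62.6% and 83.3% in the same order. Among members the gap between states was thus wider near the 5′ ends than inside the genes. It was 32.4 points in KO and 41.9 in WT cells near the 5′ ends, and 20.6 and 20.7 inside. This difference was not tested, and 23 of the 38 members near the 5′ ends belonged to FUT1. These 38 came from 360 cytosines listed there in any library. At A4GALT, ST3GAL1, ST8SIA1 and B4GALNT1, those with at least 5 reads averaged 12.7%, 12.2%, 21.3% and 26.5% in WT naive cells. They averaged 12.7%, 8.58%, 11.4% and 11.1% in WT primed cells. KO naive cells gave 14.6%, 6.75%, 15.7% and 10.2%, and KO primed cells 17.9%, 18.7%, 31.3% and 7.63%. By this measure UGCG, B3GALNT1, FUT1 and ST3GAL5 were lower in naive cells in both genotypes. The cytosines averaged were not the same in each library. At B4GALNT1 there were 25 in KO naive, 4 in KO primed, 20 in WT naive and 2 in WT primed cells.

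**Figure D1:**
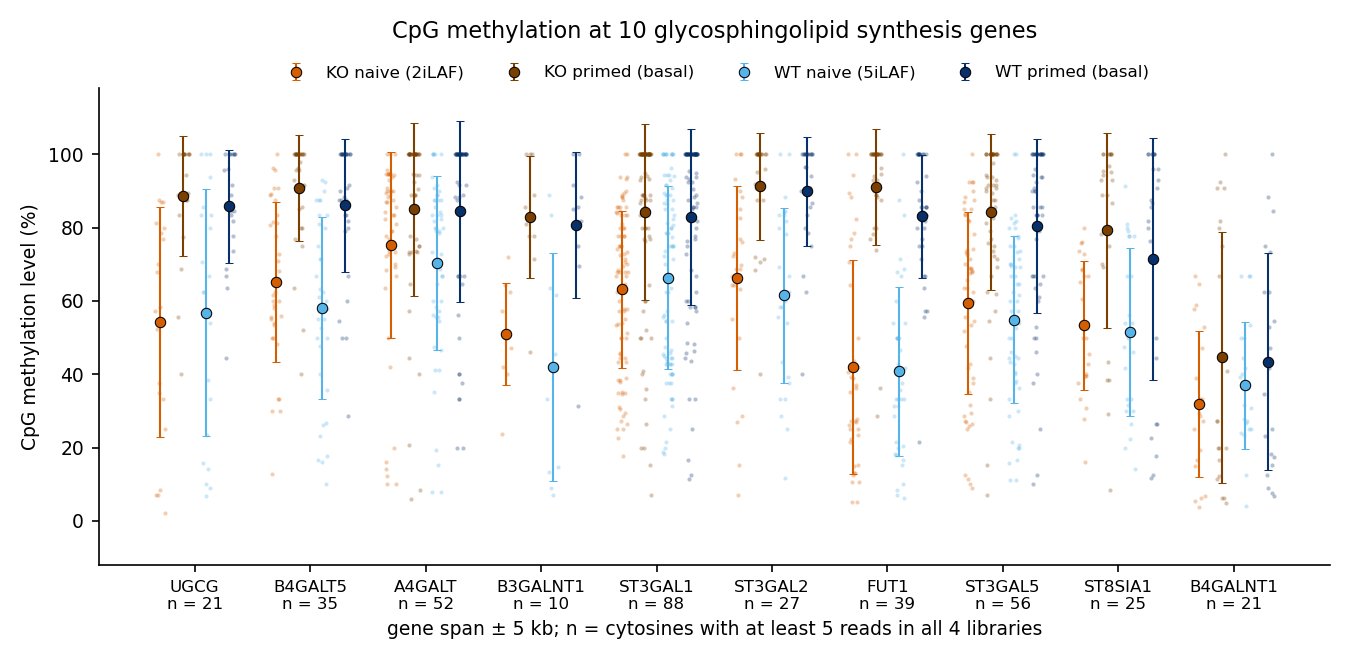
CpG methylation level (percent, y axis) of each gene (x axis) in the KO naive, KO primed, WT naive and WT primed libraries; faint points are single cytosines, and large points with bars are the mean ± SD over the gene's n cytosines, so a bar can reach past 100%. At the minimum of 5 reads shown, the naive means lie below the primed means of the same genotype in all 10 genes (9 with filling in, where B4GALNT1 turned), and B4GALNT1 has the lowest mean of the 10 genes in every library.

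Each cytosine's methylated and unmethylated reads in 2 libraries were set against each other by Fisher's exact test (two-sided), and p was adjusted over all 907719 cytosines by the Benjamini-Hochberg method. Called cytosines had an adjusted p below 0.05 and differed by 25 points or more; such a call compares 2 libraries and not 2 conditions. By direction alone 83.7% of the members were lower and 13.4% higher in KO naive cells, where 84.0% and 13.4% of all cytosines were, and in WT naive cells 79.9% were lower and 15.2% higher, where 76.8% and 17.3% of all were. In KO naive against KO primed cells 89 of 374 members were called lower, against a background of 18.2% of all cytosines, and 2 were called higher, against 0.242%. In WT naive against WT primed cells 61 members were called lower, against a background of 16.2%, and 2 higher, against 0.442%. In the KO comparison 23.8% of members were called lower and in the WT comparison 16.3%, so the WT share lay at the background. At a minimum of 10 reads the KO share was 26.8%, against 27.4% of all cytosines, so it no longer exceeded the background. Lower in both genotypes were 31 members, which made up 34.8% of the KO list and 50.8% of the WT list. The same overlap was not counted over all cytosines, so whether 31 is more than usual was not tested. Reads of neighbouring cytosines and strands are not independent: between the strands of a CpG the levels varied 2.61 to 4.02 times as much as independent reads would. When read counts were divided by that ratio, no member stayed called in any comparison. Of all 907719 cytosines, 0.170% (1540) were then still called lower in KO naive cells and 0.132% (1200) in WT naive cells. These shares are so low that the lack of calls among 374 members does not set the members apart from the background.

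**Figure D2:**
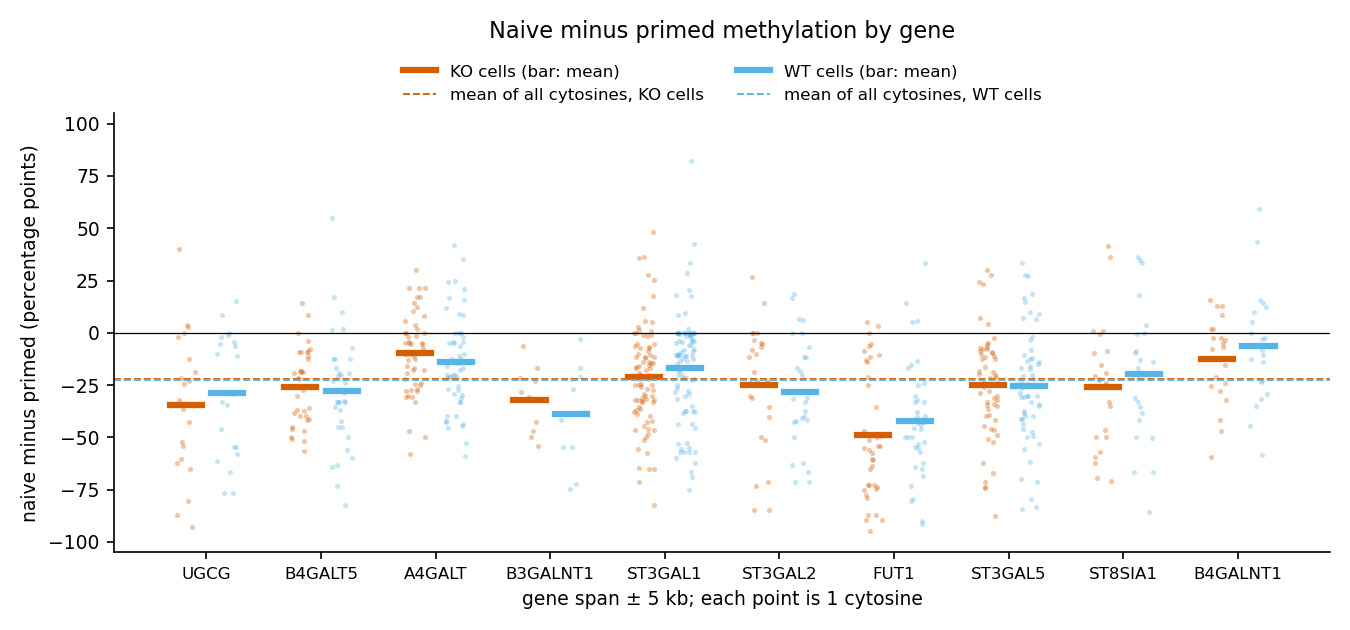
Naive minus primed methylation (percentage points, y axis) by gene (x axis), in KO cells and in WT cells; each point is 1 cytosine, thick bars are gene means and dashed lines the mean over all 907719 cytosines. At the minimum of 5 reads shown, the FUT1 bars lie furthest below the dashed lines, at -49.1 points in KO and -42.2 points in WT cells. The A4GALT, ST3GAL1 and B4GALNT1 bars lie above the lines in both genotypes, and the ST8SIA1 bar does in WT cells alone.

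The 2 core genes stood well below their primed level in naive cells. Over both genes the 56 members averaged lower in KO naive than in KO primed cells by 29.0 points, and lower in WT naive than in WT primed cells by 28.3 points. UGCG, glucosylceramide synthase (chr9:114659000-114698000, plus strand), held 21 members. Its mean level was 54.3% ± 31.3 in KO naive, 88.7% ± 16.3 in KO primed, 56.8% ± 33.6 in WT naive and 85.8% ± 15.4 in WT primed cells. Of these members 7 were called lower in KO naive cells and 5 in WT naive cells. In both naive libraries 5 of the 21 stood at or above 80% and 3 at or below 20%.

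The UGCG promoter is shown because methylation around it was recorded mainly in the primed libraries. It is the 300 bases from 250 before to 50 after the start in RefSeq's GRCh38.p14 annotation, chr9:111896564-111896863 on the plus strand, with each CG in capitals; the hg19 cytosines were not placed on it, since the builds differ.
UGCG: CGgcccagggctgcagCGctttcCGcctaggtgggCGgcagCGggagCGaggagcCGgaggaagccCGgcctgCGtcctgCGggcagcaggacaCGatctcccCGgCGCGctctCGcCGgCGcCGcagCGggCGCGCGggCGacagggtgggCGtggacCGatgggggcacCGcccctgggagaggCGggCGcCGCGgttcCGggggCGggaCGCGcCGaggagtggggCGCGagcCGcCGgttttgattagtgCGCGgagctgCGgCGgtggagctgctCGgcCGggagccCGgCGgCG
It holds 48 CG, and 1.98% of the 35116 promoters in the table hold as many or more, against a median of 14.

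Within 2 kb of the UGCG 5′ end, 9 cytosines were listed in KO naive, 16 in KO primed, 5 in WT naive and 19 in WT primed cells, of 25 listed in any library. Of these 25, 7 (28.0%) were listed in both primed libraries and in neither naive library, against 2.31% of all listed cytosines. The cytosines listed there with at least 5 reads averaged 20.6% in KO naive, 49.6% in KO primed, 18.2% in WT naive and 48.6% in WT primed cells. Naive cells thus had fewer listed cytosines there, at lower levels. The averages rest on 8 cytosines in KO naive, 16 in KO primed, 5 in WT naive and 19 in WT primed cells. These sets were not matched. Every listed cytosine had at least 1 methylated read, so the level of the whole region is not known. Of the 25 cytosines, 23 lay in the tile at 114658001, upstream of the 5′ end (median distance -498 bases). The 2 members in this window were the 2 strands of 1 CpG, at positions 114658327 and 114658328, and were singled out after their values were seen. On the plus strand that CpG stood at 8.33% in KO naive, 68.8% in KO primed, 23.5% in WT naive and 100% in WT primed cells, from 24, 16, 17 and 25 reads. The minus strand gave 25%, 77.4%, 15.8% and 73.7% in the same order. Both strands were called lower in both genotypes, with adjusted p of 0.0019 and 0.000429 in KO and 9.51e-06 and 0.00976 in WT cells by Fisher's exact test.

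A second UGCG site with a wide gap lay inside the span, at positions 114663563, 114663627 and 114663675 on the minus strand, also singled out after the values were seen. Cytosine 114663563 stood at 7.14% in KO naive, 100% in KO primed, 9.09% in WT naive and 63.6% in WT primed cells, from 28, 16, 11 and 11 reads. Cytosine 114663627 stood at 2.17%, 89.5%, 10% and 44.4% in the same order, from 46, 19, 20 and 9 reads. Cytosine 114663675 stood at 6.98%, 87.5%, 6.67% and 83.3%, from 43, 16, 15 and 12 reads. All 3 were nearly unmethylated in both naive libraries and were called lower in KO cells, but only the last was called in WT cells (adjusted p 0.00173 by Fisher's exact test). In contrast, 5 UGCG members between 114687001 and 114688000 kept high means of 84.2% ± 11.4 in KO naive, 93.3% ± 7.24 in KO primed, 85.1% ± 14.2 in WT naive and 96.1% ± 4.54 in WT primed cells.

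B4GALT5, lactosylceramide synthase (chr20:48249000-48331000, minus strand), held 35 members, 33 of them inside the span. Its mean level was 65.1% ± 21.8 in KO naive, 90.9% ± 14.5 in KO primed, 58.1% ± 24.8 in WT naive and 86.1% ± 18.0 in WT primed cells. Called lower were 8 members in KO naive and 9 in WT naive cells. Near its 5′ end only 4 cytosines were listed in any library, and none was a member.

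Over their members, the globo-series pair differed from each other in the gap between states, which was narrow at A4GALT and wide at B3GALNT1. The members lay at different places, with 50 of 52 at A4GALT further inside the span and 7 of 10 at B3GALNT1 near the 5′ end. Further inside the spans, naive minus primed was -9.42 points in KO and -13.3 in WT cells at A4GALT. At B3GALNT1 it was -33.8 and -16.9 there, from 3 members. A4GALT, which makes Gb3, the first globo-series lipid (chr22:43088000-43118000, minus strand), held 52 members. They averaged 75.3% ± 25.4 in KO naive, 85% ± 23.6 in KO primed, 70.3% ± 23.7 in WT naive and 84.4% ± 24.7 in WT primed cells. The KO difference of -9.69 points and the WT difference of -14.1 points were smaller than those over all cytosines, and 2 members in KO and 4 in WT cells were called lower. Of the 57 members at or above 80% in both naive libraries, 21 lay in A4GALT and 16 in ST3GAL1; the 57 were 15.2% of the members, against 12.4% of all cytosines.

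The high A4GALT levels lay at the 3′ end of the span, in 3 of its 1 kb tiles. The 24 members from 43089001 to 43090000 averaged 84.6% ± 12.1 in KO naive, 89.2% ± 12.5 in KO primed, 75.4% ± 14.7 in WT naive and 88.4% ± 19.8 in WT primed cells. The 10 members of the tile at 43088001 averaged 87.0%, 93.1%, 87.1% and 94.0% in the same order. The 7 members of the tile at 43091001 averaged 75.1%, 96.1%, 74.9% and 96.5%. These 3 tiles held 41 of the 52 members, and fewer than 3 lay near the 5′ end. At 43117434, 566 bases inside the 5′ end, a single member stood at 16.0% in KO naive, 20.8% in KO primed, 8% in WT naive and 33.3% in WT primed cells and was called in no comparison. In the downstream flank, toward CYB5R3, the tile at 43084001 listed 5 cytosines in KO naive, 20 in KO primed, 2 in WT naive and 20 in WT primed cells. Those with at least 5 reads there averaged 6.49% (5 cytosines), 44.9% (20), 10.7% (2) and 47.3% (15) in the same order. The naive means thus rest on few cytosines, not matched to the primed ones, and the tile held too few members to be counted.

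B3GALNT1, which makes Gb4 from Gb3 (chr3:160801000-160824000, minus strand), held 10 members, 7 of them near its 5′ end. The gene's mean level was 50.9% ± 13.9 in KO naive, 82.9% ± 16.5 in KO primed, 42.1% ± 31.1 in WT naive and 80.8% ± 19.9 in WT primed cells. The 7 members near the 5′ end, all in the tile chr3:160823001-160824000, averaged 46.3% ± 13.0 in KO naive, 77.6% ± 16.7 in KO primed, 29.5% ± 27.6 in WT naive and 77.6% ± 23.5 in WT primed cells. Over these 7 both primed libraries gave the same mean, and both naive libraries lay below it. The gap was narrower over the 57 cytosines listed within 2 kb of the 5′ end in any library. Those with at least 5 reads averaged 42.1% in KO naive (29 cytosines) and 59.6% in KO primed cells (14). They averaged 29.5% in WT naive (7) and 50.6% in WT primed cells (16), so the sets differed between libraries. Of the 10 members, 4 were called lower in KO and 4 in WT cells. The first of the gene's 3 promoters in RefSeq's GRCh38.p14 table, chr3:161105300-161105599 on the minus strand, is shown for this 5′ end, with CG in capitals.
B3GALNT1: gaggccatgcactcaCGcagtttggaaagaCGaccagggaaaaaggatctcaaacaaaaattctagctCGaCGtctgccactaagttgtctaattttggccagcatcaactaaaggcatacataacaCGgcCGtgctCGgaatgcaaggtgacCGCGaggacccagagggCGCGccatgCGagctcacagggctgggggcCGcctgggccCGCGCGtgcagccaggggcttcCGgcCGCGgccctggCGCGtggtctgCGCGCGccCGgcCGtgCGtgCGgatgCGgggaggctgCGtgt
It holds 30 CG, a number that 22.4% of promoters reach.

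Among the genes that cap the chains, FUT1 had the widest gap between naive and primed means in both genotypes at the minimum of 5 reads. FUT1, the fucosyltransferase that makes H antigen and Globo H (chr19:49251000-49259000, minus strand), held 39 members. They averaged 42.0% ± 29.1 in KO naive, 91.0% ± 15.8 in KO primed, 40.9% ± 23.1 in WT naive and 83.0% ± 16.7 in WT primed cells. The difference was -49.1 points in KO cells and -42.2 points in WT cells, where all cytosines gave -22.3 and -22.5. At 10 reads, with 12 members left, it was -36.3 points in KO and -39.4 in WT cells. Without flanks, with 20 members, it was -38.3 points in KO and -48.4 in WT cells. The wider gap in KO cells thus did not hold inside the span. Past the 3′ end, 12 members differed by -72.5 points in KO and -37.7 in WT cells. Called lower were 21 of 39 members in KO and 9 of 39 in WT cells.

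RefSeq's GRCh38.p14 table gives FUT1 2 promoters, which are shown because the levels changed sharply along this 5′ region; both are on the minus strand with CG in capitals. The first is chr19:48755309-48755608 and the second, further into the gene, chr19:48752592-48752891. The hg19 cytosines and tiles were not placed on either promoter, since the builds differ, so no level is given for them.
FUT1 promoter 1: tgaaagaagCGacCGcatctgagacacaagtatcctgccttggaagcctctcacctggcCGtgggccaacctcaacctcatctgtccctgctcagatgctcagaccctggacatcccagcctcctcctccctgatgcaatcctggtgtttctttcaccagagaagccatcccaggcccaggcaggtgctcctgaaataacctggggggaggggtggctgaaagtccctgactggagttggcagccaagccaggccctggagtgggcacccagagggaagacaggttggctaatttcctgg
FUT1 promoter 2: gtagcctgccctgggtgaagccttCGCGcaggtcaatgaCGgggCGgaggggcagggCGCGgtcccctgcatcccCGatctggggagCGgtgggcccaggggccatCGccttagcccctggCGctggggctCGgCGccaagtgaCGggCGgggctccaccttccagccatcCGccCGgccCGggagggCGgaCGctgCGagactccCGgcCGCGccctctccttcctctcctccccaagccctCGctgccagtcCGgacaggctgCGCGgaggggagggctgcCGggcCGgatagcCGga
The first holds 3 CG, which 81.8% of promoters reach, and the second 30, which 22.4% reach.

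Within FUT1 the difference was not even. In the tile chr19:49257001-49258000, inside the 5′ end (median distance 1453 bases), 11 members averaged 28.0% ± 9.90 in KO naive, 87.0% ± 20.4 in KO primed, 28.8% ± 20.9 in WT naive and 91.7% ± 14.1 in WT primed cells. Both naive libraries were low and both primed libraries high there. The adjacent tile chr19:49258001-49259000, at the 5′ end itself, held 7 members that averaged 85.2% ± 11.4 in KO naive, 89.9% ± 10.8 in KO primed, 53.1% ± 19.2 in WT naive and 81.9% ± 11.9 in WT primed cells. In that tile the KO naive library stayed near its primed level, and the WT naive library lay 28.8 points below its own. Upstream of the 5′ end, in the flank toward FGF21, 2 members at 49262471 and 49262520, singled out after their values were seen, were called lower in both genotypes. Cytosine 49262471 stood at 25% in KO naive, 100% in KO primed, 7.14% in WT naive and 87.5% in WT primed cells, from 12, 8, 14 and 8 reads.

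A second low block lay past the 3′ end of FUT1, in the flank whose next gene is IZUMO1, a gene for a sperm protein. The 11 members of the tile chr19:49249001-49250000 averaged 19.2% ± 12.1 in KO naive, 96.4% ± 8.09 in KO primed, 38.8% ± 13.6 in WT naive and 78.6% ± 13.6 in WT primed cells. Here the naive libraries did not reach the same level, and KO cells differed between states by 77.1 points against 39.7 in WT cells. The depth was uneven, with a median of 22 reads in KO naive, 6 in KO primed, 14 in WT naive and 7 in WT primed cells.

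**Figure D3:**
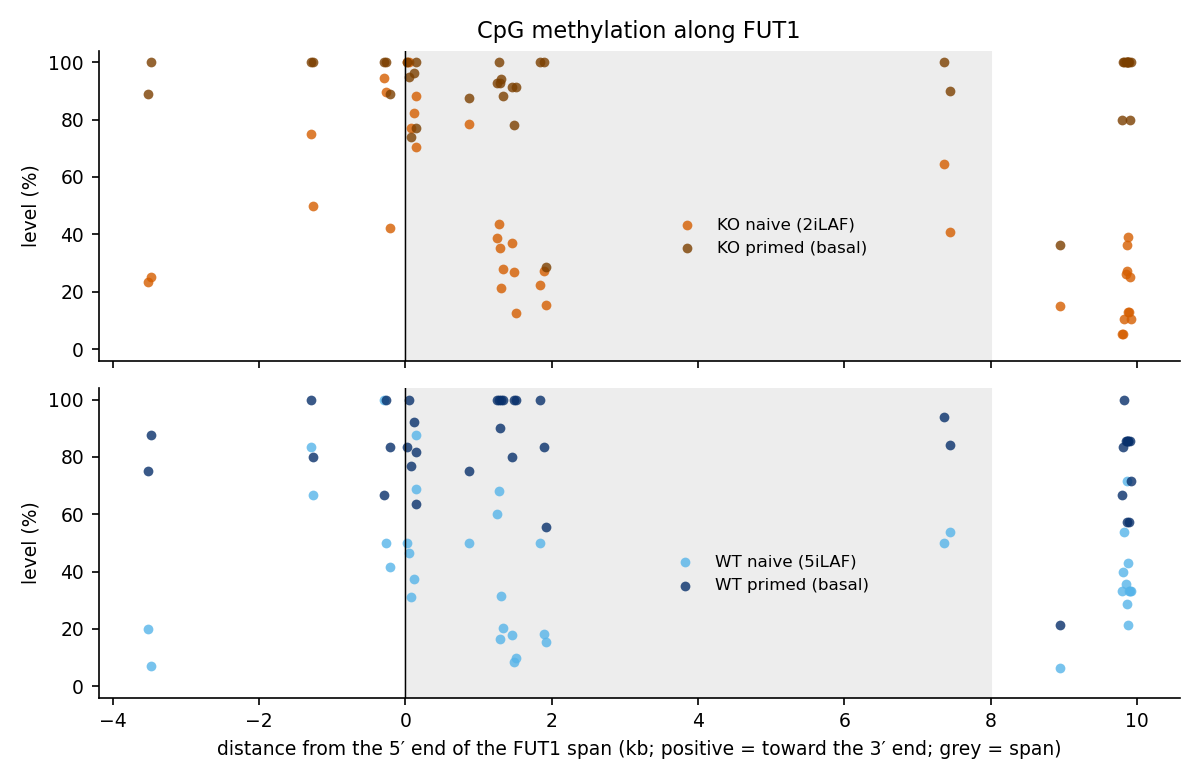
Methylation level (percent, y axis) of each FUT1 member against its distance from the 5′ end of the span (kb, x axis; grey marks the span), for the KO naive and KO primed libraries above and the WT naive and WT primed libraries below. Naive means are 28.0% in KO and 28.8% in WT cells in the tile inside the 5′ end. Past the 3′ end they are 18.9% in KO and 36.1% in WT cells, and 58.3% of the KO naive points there lie at or below 20%. KO naive points at the 5′ end itself stay near the primed ones.

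ST3GAL1, a sialyltransferase that caps galactose (chr8:134467000-134585000, minus strand), held 88 members, the most of the 10 genes. They averaged 63.2% ± 21.4 in KO naive, 84.2% ± 24 in KO primed, 66.3% ± 25 in WT naive and 82.9% ± 24 in WT primed cells. Called lower were 12 members in KO and 8 in WT cells. The tile chr8:134574001-134575000 had the widest gap of this gene in WT cells, with 6 members at 54.4% ± 23.8 in KO naive, 97.9% ± 5.10 in KO primed, 45.2% ± 8.60 in WT naive and 96.3% ± 9.07 in WT primed cells. The tile at 134513001 also had a wide gap in both genotypes, with 5 members at 59.1%, 89.9%, 57.4% and 91.8% in the same order. At the 3′ end the genotypes parted: 6 members of the tile at 134462001 averaged 50.7% ± 21.9 in KO naive, 95.6% ± 5.41 in KO primed, 74.0% ± 21.0 in WT naive and 82.6% ± 21.1 in WT primed cells. The 8 members of the tile at 134466001 averaged 61.8%, 95.7%, 79.7% and 95.5%, with a median of 6 reads in KO primed cells. Both 3′ tiles passed the rule of size in KO cells and not in WT cells; whether the genotypes differ there was not tested.

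ST3GAL1 also held both members called higher in WT naive than in WT primed cells. Cytosine 134571814 stood at 51.4% in KO naive, 26.3% in KO primed, 94.4% in WT naive and 12.5% in WT primed cells, from 37, 19, 18 and 8 reads (adjusted p 0.0020 for WT by Fisher's exact test). Cytosine 134581044 stood at 43.5%, 80%, 96.2% and 53.8% in the same order, from 23, 25, 26 and 13 reads (adjusted p 0.0242 for WT). At the second the naive level was below the primed one in KO cells and above it in WT cells. Its tile of 7 members at 134581001, which lay within 5 kb of the 5′ end, was intermediate in every library, at 33.5%, 41.5%, 47.3% and 37.8%.

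ST3GAL2, the sialyltransferase that makes the SSEA-4 epitope (chr16:70413000-70473000, minus strand), held 27 members, all inside the span. They averaged 66.3% ± 25.2 in KO naive, 91.2% ± 14.6 in KO primed, 61.6% ± 23.9 in WT naive and 89.9% ± 14.8 in WT primed cells. Called lower were 9 members in KO and 6 in WT cells. At the 3′ end, toward DDX19A, 6 members of the tile chr16:70413001-70414000 averaged 44.4% ± 23.7 in KO naive, 95.6% ± 5.40 in KO primed, 47.5% ± 26.1 in WT naive and 91.5% ± 10.5 in WT primed cells. In the middle of the gene 5 members of the tile chr16:70434001-70435000 averaged 66.3% ± 22.6, 94.4% ± 12.5, 49.1% ± 17.5 and 97.4% ± 2.54 in the same order. Within both tiles the naive libraries lay under both primed ones. Another tile, at 70451001, split by genotype instead, with 5 members at 83.2% in KO naive, 92.7% in KO primed, 61.4% in WT naive and 69.5% in WT primed cells.

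In the ganglio branch the gene at its start differed from the gene at its end. ST3GAL5, the GM3 synthase (chr2:86066000-86117000, minus strand), held 56 members at 59.4% ± 24.8 in KO naive, 84.2% ± 21.2 in KO primed, 54.9% ± 22.7 in WT naive and 80.4% ± 23.8 in WT primed cells. Called lower were 18 members in KO and 9 in WT cells. About 2.9 kb inside the 5′ end, 7 members of the tile chr2:86114001-86115000 averaged 44.7% ± 16.1 in KO naive, 82.2% ± 11.7 in KO primed, 54.4% ± 28.7 in WT naive and 81.9% ± 18.6 in WT primed cells. That tile passed the rule of size in both genotypes. The tile at 86067001 passed it in KO cells, with 6 members at 74.7%, 100%, 81.3% and 88.9% in the same order, and the tile at 86095001 in WT cells, with 5 members at 66.1%, 77.1%, 59.2% and 90.1%. The 9 members of the upstream flank, toward the antisense gene ST3GAL5-AS1, were lower in primed cells than the rest of the gene, at 35.6% in KO naive, 65.1% in KO primed, 41.6% in WT naive and 54.7% in WT primed cells.

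ST8SIA1, the GD3 synthase (chr12:22346000-22488000, minus strand), held 25 members, 22 of them inside the span. They averaged 53.3% ± 17.7 in KO naive, 79.3% ± 26.6 in KO primed, 51.5% ± 22.9 in WT naive and 71.4% ± 33.1 in WT primed cells. Called lower were 7 members in KO and 6 in WT cells. Cytosine 22428981 stood at 16.0% in KO naive, 86.7% in KO primed, 14.3% in WT naive and 100% in WT primed cells, from 25, 30, 7 and 22 reads, and was singled out after its values were seen. The 2 members called higher in KO naive than in KO primed cells both lay in ST8SIA1, 65 bases apart. Cytosine 22441350 stood at 65.1% in KO naive, 29.0% in KO primed, 33.3% in WT naive and 50% in WT primed cells (adjusted p 0.0286 for KO by Fisher's exact test). Cytosine 22441415 stood at 50%, 8.57%, 47.4% and 12.5% in the same order (adjusted p 0.00238 for KO), so the second was higher in both naive libraries, and the first in the KO naive but not in the WT naive library; the difference between genotypes was not tested. The 9 members of their tile averaged 52.9% in KO naive, 57.4% in KO primed, 48.0% in WT naive and 40.6% in WT primed cells.

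B4GALNT1, which makes GM2 and GD2 (chr12:58017000-58028000, minus strand), had the lowest mean of the 10 genes in primed cells. Its 21 members averaged 31.8% ± 19.9 in KO naive, 44.6% ± 34.3 in KO primed, 37.0% ± 17.3 in WT naive and 43.4% ± 29.5 in WT primed cells. Only 1 member was called lower in KO and 1 in WT cells. The 10 members past its 3′ end averaged 17.4% in KO naive, 18.9% in KO primed, 31.7% in WT naive and 22.9% in WT primed cells, and the 3 in its upstream flank averaged 52.0%, 88.3%, 37.5% and 82.4%. The 7 inside the span beyond 2 kb of the 5′ end averaged 44.5% in KO naive, 67.2% in KO primed, 45.7% in WT naive and 59.8% in WT primed cells. Without flanks, with 8 members, naive minus primed was -17.9 points in KO and -11.2 in WT cells. The low primed mean thus rested mainly on the members past the 3′ end, which were low in all 4 libraries. A few members elsewhere were high in primed cells. B4GALNT1 overlaps SLC26A10P, a pseudogene, in the GRCh38.p14 gene table, so its members cannot be given to B4GALNT1 alone. UGCG, B3GALNT1, ST3GAL1, ST3GAL2 and ST8SIA1 also overlap other entries of that table, so a like limit holds for them.

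Because an unlisted cytosine may be an unmethylated one, the number of listed cytosines was itself compared. At B4GALNT1, 178 cytosines were listed in KO naive, 72 in KO primed, 182 in WT naive and 62 in WT primed cells, of 249 listed in any library. The naive library listed 2.47 times as many as the primed library in KO cells and 2.94 times as many in WT cells, while over the whole table the 4 libraries listed 2340330, 2204054, 2018895 and 2109788. Listed in both naive libraries and in neither primed library were 63 of 249 (25.3%), against 96 of 1556 (6.17%) over all 10 genes and 3% over the whole table. On these 63 cytosines the naive reads were methylated at 15.0% in KO cells and at 34.0% in WT cells (coverage summed over cytosines, 1329 and 656). Whether the primed libraries had no coverage or no methylated read there was not tested.

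**Figure D4:**
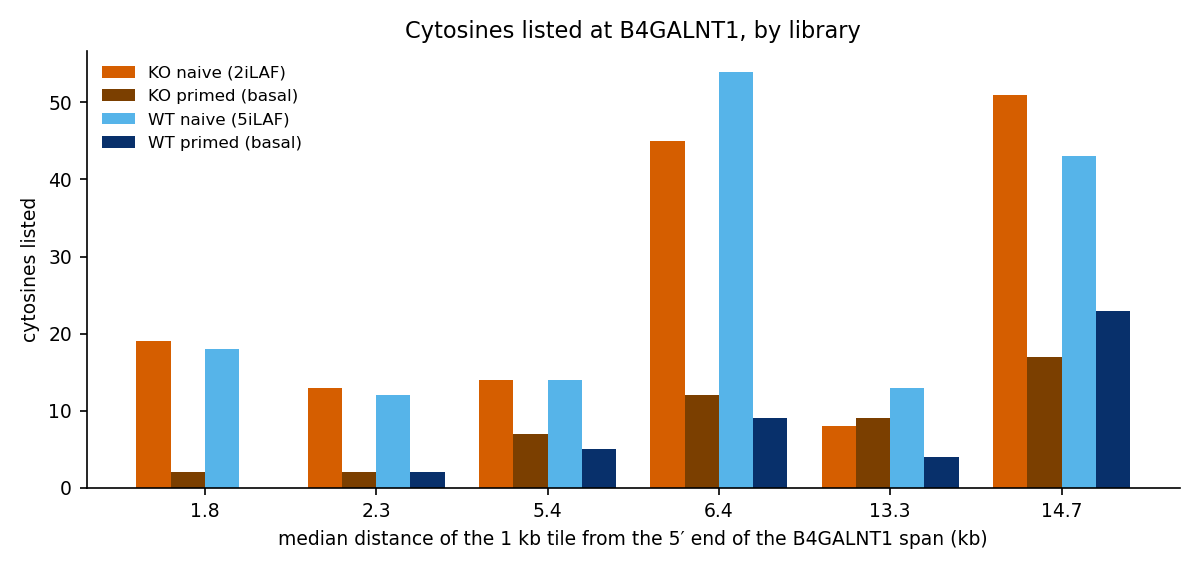
Number of cytosines listed (y axis, from 0) in each 1 kb tile at B4GALNT1, by the tile's median distance from the 5′ end of the span (kb, x axis), in the KO naive, KO primed, WT naive and WT primed libraries. The naive bars are taller than the primed bars of the same genotype in most tiles, most of all in the tile with 45 and 54 cytosines in KO and WT naive cells, against 12 and 9 in KO and WT primed cells.

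The pattern ran over the gene and its start. Within 2 kb of the 5′ end 25 cytosines were listed in KO naive, 4 in KO primed, 21 in WT naive and 2 in WT primed cells. Inside the gene, the tile chr12:58021001-58022000 listed 45, 12, 54 and 9 in the same order. Levels there were low in every library: cytosines with at least 5 reads averaged 20.6% in KO naive, 16.7% in KO primed, 33.9% in WT naive and 15.8% in WT primed cells. ST8SIA1 was like it at its 5′ end, where 70 cytosines were listed in KO naive, 22 in KO primed, 41 in WT naive and 25 in WT primed cells. Of 149 ST8SIA1 cytosines, 15 (10.1%) were listed in both naive libraries alone, and their naive reads were methylated at 12.1% in KO and 25% in WT cells. UGCG ran the other way, as given above, and the FUT1 start listed 57, 59, 42 and 61. When unlisted cytosines were filled in as unmethylated wherever a listed neighbour within 25 bp gave a coverage, the B4GALNT1 mean became higher in naive than in primed cells by 3.55 points in KO cells, which turned the direction, and by 14.8 points in WT cells.

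Between genotypes the members differed far less than between states. In primed cells, both in basal medium, the member mean was higher in KO than in WT by 3.16 points, beside 0.973 over all cytosines. All 10 gene means were higher in KO primed than in WT primed cells, by 0.574 points at A4GALT up to 7.86 at ST8SIA1 and 8.02 at FUT1, but these signs depended on the setting. At 10 reads 7 of 10 were higher in KO, with UGCG at -0.116, B4GALT5 at -1.72 and B4GALNT1 at -5.43 points, and with filling in 8 were. FUT1 gave 3.10 points at 10 reads and 0.834 without flanks. Of the 374 members, 43.0% were higher in KO and 35% lower, against 41.4% and 39.0% of all cytosines. Only 1 member was called higher in KO, against a background of 0.216%, and 18 had an unadjusted p under 0.05, where 4.65% of all cytosines did. None was called lower, against a background of 0.103%, and 6 had an unadjusted p under 0.05 by Fisher's exact test, where 3.25% of all did. The called one, A4GALT cytosine 43089013, stood at 83.3% in KO naive, 100% in KO primed, 46.7% in WT naive and 37.5% in WT primed cells, from 18, 21, 15 and 16 reads (adjusted p 0.0156). It was higher in KO than in WT cells in both states.

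**Figure D5:**
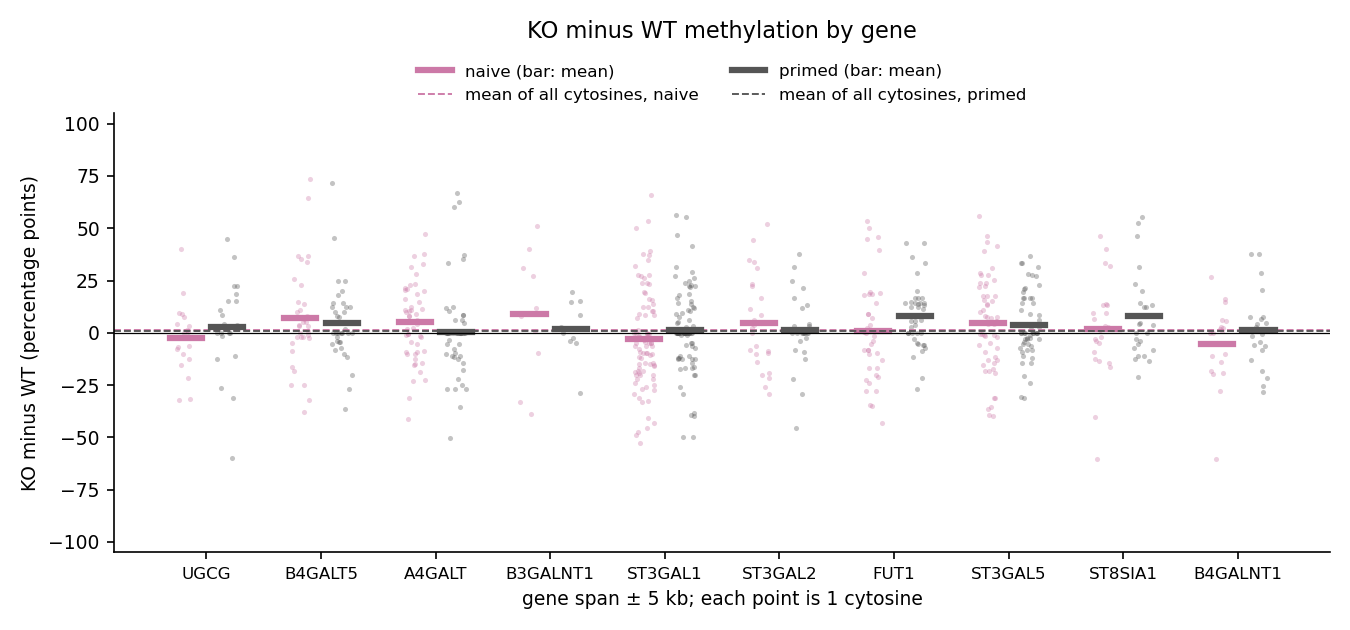
KO minus WT methylation (percentage points, y axis) by gene (x axis), for naive cells and for primed cells; each point is 1 cytosine, thick bars are gene means and dashed lines the mean over all 907719 cytosines. At the minimum of 5 reads shown, the primed bars lie above 0 in all 10 genes and the naive bars in 7 of 10; at 10 reads the numbers were 7 and 9.

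In naive cells, where the medium differed too, the member mean was higher in KO than in WT by 1.66 points, beside 1.14 over all cytosines. The gene mean was higher in KO naive than in WT naive cells at 7 genes, most at B3GALNT1 (8.82 points) and B4GALT5 (6.99), and lower at UGCG, ST3GAL1 and B4GALNT1, with differences of -2.56, -3.09 and -5.14 points. Which gene differed most changed with the setting. It was ST3GAL2 at 10 reads (17.0 points), FUT1 without flanks (10.9) and B4GALNT1 with filling in (-9.55). At 10 reads UGCG and B4GALNT1 turned, to 3.15 and 1.66 points. Called higher in KO were 2 members, against a background of 0.391%, and called lower 2, against 0.218%. B4GALT5 cytosine 48334368, in its upstream flank, stood at 83.3% in KO naive, 91.3% in KO primed, 10% in WT naive and 83.3% in WT primed cells, from 24, 23, 20 and 6 reads (adjusted p 0.00285 by Fisher's exact test). ST3GAL2 cytosine 70451924 stood at 100%, 100%, 55.6% and 86.7% in the same order (adjusted p 0.0391). Lower were ST8SIA1 cytosine 22423946, at 30.8%, 100%, 91.3% and 100% (adjusted p 0.0484), and ST3GAL1 cytosine 134581044, given above (adjusted p 0.0209). At the B4GALT5 and ST3GAL2 sites the WT naive library was the lowest of the 4, and at the ST8SIA1 and ST3GAL1 sites the KO naive library was. Genotype and medium cannot be told apart in this comparison.

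In 1 kb tiles with at least 5 members, a tile was counted when its mean differed by at least 25 points and at least 80% of its members moved that way, a rule of size without a p. Of 27 tiles, 12 (44.4%) were lower in KO naive than in KO primed cells, against a background of 36.2% of all tiles. In WT cells 9 (33.3%) were lower, against 36.8%, and 8 of these were also among the 12 in KO cells. That overlap was not counted over all tiles. None of the 27 was higher in naive cells, against 0.162% of all tiles in KO and 0.536% in WT cells. Between genotypes none of the 27 differed in primed cells, against 0.8% of all tiles lower in KO and 1.54% higher. In naive cells none was lower in KO, against 2.21%, and 2 were higher, against 3.33%. These were the FUT1 tile at its 5′ end, described above, and the B4GALT5 tile chr20:48297001-48298000, inside the gene. The B4GALT5 tile held 6 members at 80.4% ± 16.4 in KO naive, 89.8% ± 11 in KO primed, 50.6% ± 31.5 in WT naive and 72.8% ± 26.9 in WT primed cells. WT cells were the lower ones there in both states, by 29.7 points in naive and 17.0 in primed cells.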

How the data were processed

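Genomic DNA of 4 H9 cultures was captured and bisulfite-sequenced (conversion 99% in every library, per the labels' protocols). The build was hg19 (GRCh37) per the submitters' notes, with the aligner and caller not given in the sources used here. For each cytosine and strand the authors deposited, per the file headers, read counts (total, context and methylated coverage) and the methylation level as a fraction. Levels were recomputed from the counts, and chromosome Y was not used. Cytosines with a context coverage of at least 5 reads in all 4 libraries were kept and averaged with equal weight. Fisher's exact tests and Benjamini-Hochberg adjustment (Python 3.11.15, scipy 1.17.1) covered all such cytosines and were tested on simulated data; p-values compare libraries, so they measure counting error only.

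The members and lists were chosen with earlier results of these data known. The rule for naming took all 10 genes, windows with at least 3 members, and at most the 3 tiles with the largest difference per gene and comparison; other sites are said to be singled out. The span ends, rounded to 1 kb, stood for transcript ends, and strands come from general knowledge. Neighbours and promoters come from RefSeq's GRCh38.p14 tables, which held promoters for 7 of the 10 genes; no coordinates were converted. Alternatives were other coverage minimums, no flanks, read weighting, filling in, a larger difference and scaled counts. Other genes of the pathway were not analysed here.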

Additional observations from a re-analysis of the deposited data

Results flagged for a closer look

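Some results had effects of opposite sign in the 2 groups set against each other. With 1 library a group, none of these differences was tested, and no cause was tested.

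For 3 genes the KO minus WT difference was below 0 in naive cells and above 0 in primed cells. It was -2.56 points in naive and 2.86 in primed cells at UGCG, a gap of -5.42. At ST3GAL1 it was -3.09 and 1.36, a gap of -4.46. At B4GALNT1 it was -5.14 and 1.14, a gap of -6.28. At 10 reads UGCG was 3.15 in naive and -0.116 in primed cells and B4GALNT1 1.66 and -5.43, the opposite way round.

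The same held for 10 of the tiles named. The widest gap was -37.4 points in the FUT1 tile past the 3′ end (49249001), where KO minus WT was -19.6 in naive and 17.8 in primed cells. The ST3GAL1 tile at 134462001 had a gap of -36.3, with -23.3 in naive and 13.0 in primed cells. Gaps of -18.1 at the ST3GAL1 tile 134466001, -17.7 and -9.94 at the ST3GAL5 tiles 86067001 and 86114001, and -7.18 at the ST3GAL2 tile 70413001 ran the same way. The opposite sign was found at the ST3GAL2 tile 70434001 (20.2), the ST3GAL5 tile 86095001 (19.9), the B3GALNT1 tile 160823001 (16.9) and the ST3GAL1 tile 134513001 (3.58).

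For 2 called cytosines the naive minus primed difference had opposite signs in the genotypes. At the ST8SIA1 cytosine 22441350 it was 36.1 points in KO and -16.7 in WT cells, and the WT effect minus the KO effect was -52.8. At the ST3GAL1 cytosine 134581044 it was -36.5 in KO and 42.3 in WT cells, and that gap was 78.8.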

How the results depend on the processing

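All mean differences between states over the members kept their sign. The KO naive minus KO primed mean moved to -22.7 points at 10 reads, -21.7 at 20 reads, -21.7 without flanks and -20.5 with filling in. The WT naive minus WT primed mean moved to -15.0 at 20 reads (6 cytosines) and -17.1 with filling in. KO minus WT naive moved to 4.21 at 10 reads, -4.68 at 20 reads, which turned the sign, and 3.53 without flanks. The 20-read minimum left 6 members and 2 calls lower in KO and 2 in WT cells; scaled counts left 0, and both left 0 in all other counts. At 10 reads the calls lower in KO were 44 (26.8% of members, against 27.4% of all), those higher in WT naive 1 and those lower in KO against WT naive 1. A difference of 50 points left 1 call higher in WT naive, 0 higher in KO naive and 1 higher in KO against WT naive. Without flanks 1 was higher in KO against WT naive, and with at most 100 reads 1 was lower. The causes were not tested, apart from the smaller sets. Of 160 gene means under alternatives 12 changed sign. Between states B4GALNT1 did with filling in, to 3.55 in KO and 14.8 in WT cells. The other 10 were KO minus WT: in primed cells UGCG (-0.116), B4GALT5 (-1.72, 11 cytosines) and B4GALNT1 (-5.43) at 10 reads, A4GALT (-0.508) and B4GALNT1 (-1.61) with filling in, B4GALNT1 (-4.36) weighted by reads and ST3GAL1 (-0.151) without flanks; in naive cells UGCG (3.15) and B4GALNT1 (1.66) at 10 reads and ST8SIA1 (-2.31) with filling in. No paired analysis was possible because each group holds 1 library. Depth limits single cytosines: the median member had 12 to 20 reads, and 164 members had at least 10 reads in every library.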
